A study of Mus musculus with 2 samples.

Results

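The regions described here were stretches of open chromatin between genes, each with its summit 1 to 20 kb from the nearest 5′ end of a protein-coding gene. Overlapping peaks of each replicate were merged, regions of both replicates that overlapped were joined into shared regions, and each shared region was placed by the summit with the highest fold enrichment. A shared region was kept where this summit lay in no annotated gene body, more than 1 kb from every annotated transcript start and no more than 20 kb from the nearest protein-coding start. The rule used position alone and left 8099 of the 67991 shared regions on chromosomes 1 to 19 (11.9%). These are called near-gene intergenic regions below.

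The data were ATAC-seq peak lists, made by letting a transposase insert sequencing adapters into accessible DNA. There was 1 group of 2 biological replicates, both primary megakaryocytes of male C57BL/6J mice aged 5 to 6 weeks, with 50000 cells per sample and no genetic change or treatment named. Both replicates carry the same donor record, so any spread between them describes these 2 samples and may be technical. No other cell type was measured and how the cells were isolated is not given in the sources used here, so the make-up of the cell population and the state of one cell type cannot be told apart.

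Open regions between genes include enhancers, which bind transcription factors and raise the output of a gene at a distance, and insulators, where CTCF is known to stop loops of chromatin. Megakaryocytes are the large bone marrow cells that release platelets, and their genes are known to be driven by GATA1, by the ETS factors FLI1 and ERG, by RUNX1 and by the NF-E2 complex. The myeloid cells that share the marrow with them, neutrophils and monocytes, rely on the ETS factor PU.1 and on C/EBP factors. The nearest gene of a region is a label of position and is not always the gene that the region controls.

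The sequences below are shown because the later results turn on which motif letters lie under the summits of regions next to megakaryocyte and platelet genes. Each is the plus strand of mouse build mm10 (GRCm38), read from the RefSeq assembly of that build, over 121 bases centred on the summit of the strongest near-gene intergenic region next to the gene that holds a searched pattern. Capitals mark a match on either strand to 1 of 6 patterns, GATA letters (AGATAA), ETS (AGGAAGT), RUNX (TGTGGTT), C/EBP (TTGCNNAA), NF-E2 (TGC directly before an AP-1 match) or the CTCF core (beginning with CCA and ending with GGC, with AG in the middle and any pair of bases on each side of it).
Cd9, chr6:125509918-125510038: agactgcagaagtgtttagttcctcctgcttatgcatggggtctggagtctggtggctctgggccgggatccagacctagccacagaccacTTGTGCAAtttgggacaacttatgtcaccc
Gp9, chr6:87764013-87764133: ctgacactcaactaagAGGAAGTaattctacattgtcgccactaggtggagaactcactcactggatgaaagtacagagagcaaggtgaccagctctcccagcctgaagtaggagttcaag
Treml1, chr17:48379174-48379294: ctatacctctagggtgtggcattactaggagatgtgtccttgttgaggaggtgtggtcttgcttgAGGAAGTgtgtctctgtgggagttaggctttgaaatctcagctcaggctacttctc
Etv6, chr6:134020931-134021051: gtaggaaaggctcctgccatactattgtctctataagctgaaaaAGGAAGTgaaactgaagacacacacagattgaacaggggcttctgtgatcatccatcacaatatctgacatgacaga
Bach1, chr16:87688928-87689048: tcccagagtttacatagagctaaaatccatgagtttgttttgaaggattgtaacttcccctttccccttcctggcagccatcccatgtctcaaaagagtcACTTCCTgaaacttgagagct
Erg, chr16:95600700-95600820: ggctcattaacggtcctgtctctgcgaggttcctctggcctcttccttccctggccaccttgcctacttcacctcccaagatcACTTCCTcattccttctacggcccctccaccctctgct
Plcg2, chr8:117481961-117482081: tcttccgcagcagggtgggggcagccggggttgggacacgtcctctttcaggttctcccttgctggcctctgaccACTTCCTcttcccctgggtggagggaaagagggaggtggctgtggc
Ptgs1, chr2:36214170-36214290: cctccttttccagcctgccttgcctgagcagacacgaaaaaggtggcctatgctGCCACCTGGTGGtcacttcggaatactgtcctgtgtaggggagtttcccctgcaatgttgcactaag
The windows of Gp9, Treml1, Etv6, Bach1, Erg and Plcg2 held the ETS letters, that of Cd9 the C/EBP letters and that of Ptgs1 the CTCF core. In the windows of Gp9, Treml1, Erg and Plcg2 the ETS letters were part of a longer pattern, the PU.1 box GAGGAAGT. None of these 8 windows held the GATA, RUNX or NF-E2 letters. The windows were picked in order of strength and do not stand for all regions next to such genes. Within 100 bp of the summit, 2 of 13 regions next to listed surface and granule genes held GATA letters (15.4%), 1 RUNX letters and 1 NF-E2 letters. Of 21 regions next to listed transcription factor genes, 2 held GATA letters and 2 RUNX letters. Of 13 next to platelet signalling genes, 1 held GATA letters and 1 RUNX letters. ETS letters were in 4 of 13, 8 of 21 and 4 of 13 regions of these lists, in the same order. Among all near-gene intergenic regions the shares were 8.84% for GATA, 9.40% for RUNX, 1.3% for NF-E2 and 22.9% for ETS letters. With so few regions per list, the counts are not read as differing from these shares.

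The next windows lie beside neutrophil genes and beside Sfpq, which had the strongest region without a match elsewhere in the genome, and are given for comparison with the megakaryocyte genes.
Retnlg, chr16:48865103-48865223: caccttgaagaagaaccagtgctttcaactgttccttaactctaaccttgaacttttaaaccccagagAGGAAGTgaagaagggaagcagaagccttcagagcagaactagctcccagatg
Csf3r, chr4:126017807-126017927: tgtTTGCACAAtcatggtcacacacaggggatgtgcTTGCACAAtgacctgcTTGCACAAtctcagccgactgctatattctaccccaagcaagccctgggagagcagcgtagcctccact
Ly6g, chr15:75143864-75143984: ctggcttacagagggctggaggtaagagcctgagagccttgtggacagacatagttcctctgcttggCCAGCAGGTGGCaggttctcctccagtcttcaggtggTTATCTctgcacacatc
Sfpq, chr4:127015719-127015839: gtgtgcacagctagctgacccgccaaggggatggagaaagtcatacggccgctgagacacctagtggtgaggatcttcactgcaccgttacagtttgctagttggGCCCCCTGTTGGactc
The Csf3r window, upstream of the receptor for the neutrophil growth factor G-CSF, held the C/EBP letters 3 times, starting 57, 24 and 8 bases before the summit. The Retnlg window held the ETS letters as part of the PU.1 box, and 1 other copy of that region was found in the genome. Ly6g, which encodes a neutrophil surface protein, had a CTCF core 7 bases after the summit and GATA letters 44 bases after it.

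Windows of 201 bases beside Pf4 and Vwf were chosen after their values were seen, because they held GATA, RUNX and ETS letters or NF-E2 letters.
Pf4, chr5:90775753-90775953: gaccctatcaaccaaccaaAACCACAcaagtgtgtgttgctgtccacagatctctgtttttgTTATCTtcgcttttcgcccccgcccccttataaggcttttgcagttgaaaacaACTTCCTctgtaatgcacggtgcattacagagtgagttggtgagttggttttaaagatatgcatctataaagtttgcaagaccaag
Vwf, chr6:125540282-125540482: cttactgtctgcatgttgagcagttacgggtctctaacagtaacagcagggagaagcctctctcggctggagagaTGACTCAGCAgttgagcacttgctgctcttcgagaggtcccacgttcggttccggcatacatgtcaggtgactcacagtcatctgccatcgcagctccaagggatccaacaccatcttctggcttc
The region downstream of Pf4, which encodes a chemokine stored in platelet granules, held all of the RUNX, GATA and ETS letters, starting 81 and 38 bases before and 15 bases after the summit. It was 1 of 22 near-gene intergenic regions (0.272%) with all of these patterns, compared with 23 regions (0.216%) at 20 to 200 kb. At Pf4 the ETS letters were part of the PU.1 box. The region upstream of Vwf, which encodes the adhesive protein von Willebrand factor, held the NF-E2 letters 25 bases before the summit. The summit of this Vwf region lay in masked repeat sequence, as did those of the Treml1 and Bach1 regions shown above.

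Near-gene intergenic sequence held more open regions per base than sequence further from genes. Over 217 Mb of eligible sequence there were 37.3 shared regions per Mb, compared with 21.2 per Mb from 20 to 200 kb and 3.77 per Mb beyond 200 kb. Each replicate's own regions gave the same order. There were 42.5 per Mb in replicate 1 and 43.6 per Mb in replicate 2 within 20 kb, and 24.5 and 25.3 per Mb from 20 to 200 kb. Within the 20 kb the density changed little with distance. It was 41.4 per Mb at 1 to 2 kb, 34.3 at 2 to 5 kb, 39.4 at 5 to 10 kb, 37.3 at 10 to 15 kb and 36.0 at 15 to 20 kb, then 30.1 at 20 to 50 kb and 12.5 at 100 to 200 kb.

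**Figure D1:**
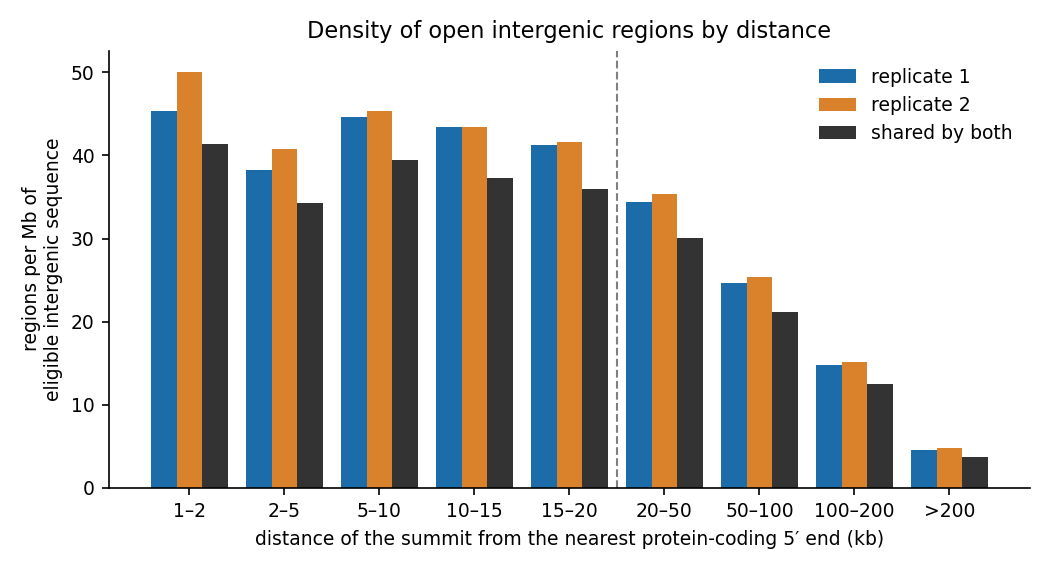
Open regions per Mb of eligible intergenic sequence (y axis) by distance of the summit from the nearest protein-coding 5′ end in kb (x axis), for regions of replicate 1, of replicate 2 and shared by both; bins left of the dashed line hold the near-gene intergenic regions. Shared density lies between 34.3 and 41.4 per Mb left of the line and falls to 3.77 per Mb in the last bin.

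Most of the regions lay upstream of the nearest start. The median distance was 9.01 kb (quartiles 5.01 and 13.9 kb), and 6604 regions (81.5%) were upstream of the nearest coding gene and 1495 (18.5%) downstream. The eligible sequence was 80% upstream, since the sequence downstream of a start is mostly its own gene. Per Mb there were 38.1 shared regions upstream and 34.5 downstream, 43.2 and 39.5 in replicate 1, and 44.4 and 40.0 in replicate 2. Of all regions, 52.8% lay between genes of the same direction, 36.6% between genes that start next to each other and 10.4% between genes that end next to each other. For 35.3% another annotated start, such as that of a non-coding gene, was nearer than the coding one, and 533 regions (6.58%) lay within 1 kb of the 3′ end of a gene. Another shared summit, promoter summits included, lay within 5 kb of 58.3% of the regions. The share in other classes is not given, so this is not read as particular to these regions.

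The regions were about as strong as other open regions outside promoters and weaker than promoters. Their median fold enrichment over local background, the authors' value for each peak, was 6.97 in replicate 1 and 7.41 in replicate 2 (mean 7.19 ± 0.308, SD, n = 2). The medians were 7.11 and 7.80 in regions 20 to 200 kb away, 6.71 and 7.22 in introns, and 9.04 and 9.05 at promoters, meaning summits within 1 kb of any transcript start. In both replicates the median of near-gene intergenic regions was below that at 20 to 200 kb and above that of introns. These differences were smaller than the difference from promoters in both replicates, and none was tested. The median width was 404 bp (quartiles 286 and 566 bp), compared with 434 bp at 20 to 200 kb and 680 bp at promoters. Regions 1 to 2 kb and 2 to 5 kb from the start were weaker than those further out. Their medians were 5.74 and 5.92 in replicate 1 and 6.12 and 6.14 in replicate 2, compared with 7.40 and 7.69 at 5 to 10 kb.

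**Figure D2:**
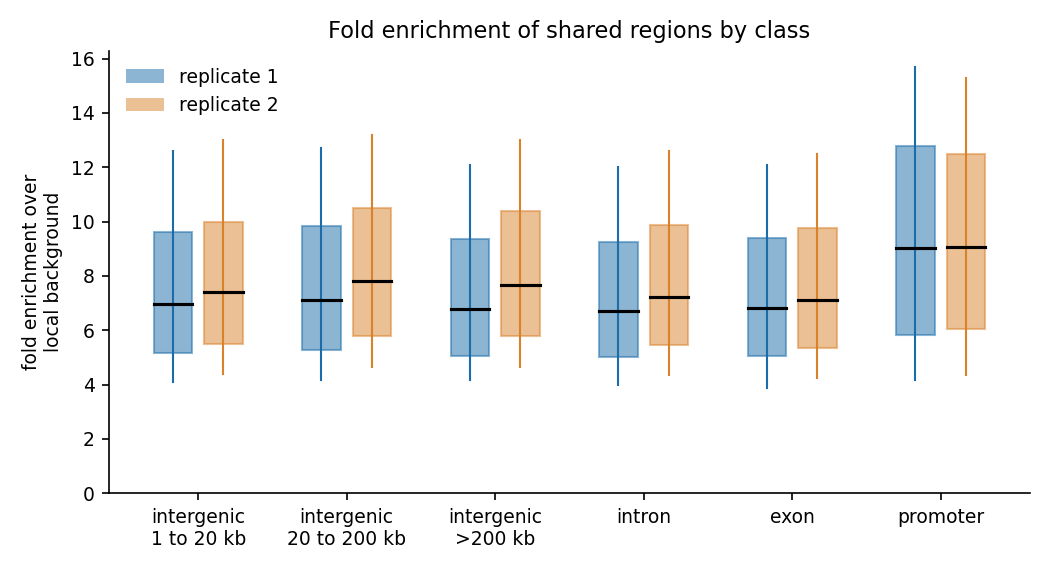
Fold enrichment over local background (y axis) of shared regions by class (x axis), for replicate 1 and replicate 2; boxes span the quartiles, black lines are medians and thin lines run from the 10th to the 90th percentile of regions. Medians of near-gene intergenic regions, 6.97 and 7.41, lie close to those of introns, 6.71 and 7.22, and below those of promoters, 9.04 and 9.05.

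The base composition was closer to that of more distant regions than to that of promoters. Within 100 bp of the summit the median GC content was 49.8% and the median ratio of observed to expected CpG was 0.233, compared with 48.8% and 0.224 at 20 to 200 kb and 61.2% and 0.685 at promoters. The summit lay in masked repeat sequence in 11.7% of the regions, compared with 10.9% at 20 to 200 kb and 6.08% at promoters. By chromosome the density ran between 29.3 regions per Mb on chromosome 14 and 46.4 per Mb on chromosome 15, with 46.3 per Mb on chromosome 11.

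The replicates gave close values for single regions. Across the 8099 regions, which are not independent replicates, fold enrichments of the replicates had a Spearman's rho of 0.915, and 96.9% differed by less than 1.5-fold. The median log2 ratio of replicate 2 to replicate 1 was 0.05 with an SD of 0.25 over regions, and 4848 regions were higher in replicate 2. Their summits lay a median of 8 bp apart, and 95.8% no more than 50 bp apart. On the authors' stricter lists, filtered by the irreproducible discovery rate (IDR), 4066 regions (50.2%) were present in both replicates, compared with 53.3% of all shared regions, 47.4% of those at 20 to 200 kb and 71.1% of promoter regions. On the stricter list of replicate 1 there were 57.7% of the regions, and on that of replicate 2 there were 61.4%.

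The largest differences between replicates were at regions next to Tas2r134, a taste receptor gene, with 4.15 in replicate 1 and 12.3 in replicate 2, and next to Alpl, the gene of tissue-nonspecific alkaline phosphatase, with 3.85 and 10.4. In the other direction the region next to Gadd45b, a stress-response gene, had 7.54 in replicate 1 and 3.22 in replicate 2. Abcc2, Fam204a, Hexim2 and Ngdn were the others of the 5 largest differences in this direction, with log2 ratios of -0.75 to -0.94. Pde5a, Tcstv3 and Cd7 completed those higher in replicate 2, with log2 ratios of 1.04 to 1.14.

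At the summits the letters of ETS factors, C/EBP and CTCF were more frequent than in the flanks, and the GATA letters AGATAA were not. Within 100 bp of the summit, 22.9% of the regions held the ETS pattern AGGAAGT, compared with 5.04% of windows of the same length centred 1 kb to each side. The longer PU.1 box GAGGAAGT, which contains the ETS pattern, was in 10.8% of the regions and 1.36% of their flanks, a ratio of 7.94. C/EBP letters were in 14.4% of the regions and 7.70% of flanks, AP-1 letters (TGANTCA) in 10.3% and 5.57%, and RUNX letters in 9.40% and 6.16%. NF-E2 letters, which contain an AP-1 match, were rare at 1.3% of regions and 0.346% of flanks. The HNF4 pattern CAAAGTCCA, named for a liver factor, was in 0.296% of regions and 0.346% of flanks. The frequent letters were not particular to near-gene intergenic regions. At 20 to 200 kb the shares were 25.9% for ETS, 12.2% for the PU.1 box, 16.1% for C/EBP, 11.0% for AP-1 and 10.6% for RUNX. In introns they were 26.6%, 12.3%, 15.6%, 10.9% and 10.4%. A match describes letters and is not evidence of a bound factor.

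The GATA letters were in 9.54% of regions at 20 to 200 kb and 9.38% of intronic regions. They were in 8.84% of the near-gene intergenic regions and 10.3% of the flanks of these. At the summits of replicate 1 the share was 8.99% and at those of replicate 2 it was 8.75%. The regions were richer in GC than their flanks, with a median of 49.8% and 45.8%, and the same letters in reversed order were in 7.93% of regions and 9.82% of flanks. The order of summit and flank turned with the pattern, which was varied after the data were seen. The longer AGATAAG was in 2.93% of the regions and 2.57% of flanks, and the shorter GATAA in 18.6% and 23.9%. Reversed letters of other patterns are given for comparison. Those of ETS were in 4.12% of regions and 4.14% of flanks, of the PU.1 box in 1.28% and 1.27%, of C/EBP in 2.10% and 1.97%, of AP-1 in 5.09% and 5.32%, and of RUNX in 2.77% and 3.29%. The reversed CTCF core and NF-E2 letters were rare but also more frequent at summits. The CTCF core reversed was in 0.173% of regions and 0.0617% of flanks, a ratio of 2.80, compared with 5.87 for the core itself. NF-E2 letters reversed were in 0.0370% and 0.0123%, a ratio of 3.00, compared with 3.75 for the letters themselves. Ratios from reversed shares this small rest on few matches and are imprecise, while the patterns themselves were in 1283 regions for the CTCF core and 105 for NF-E2. Reversed HNF4 letters were in 0.296% of regions and 0.198% of flanks.

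Matches around the summit had distinct shapes. In bins of 20 bp, CTCF core matches within 20 bp of the summit were 23.8 times as dense as those 400 to 500 bp away, with 5.78 against 0.243 matches per 100 regions. ETS matches were 8.33 times as dense, C/EBP matches 2.55 times, AP-1 matches 2.43 times and RUNX matches 2.42 times. For GATA this ratio was 0.711, with 0.833 matches per 100 regions at the summit and 1.17 at the edge.

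**Figure D3:**
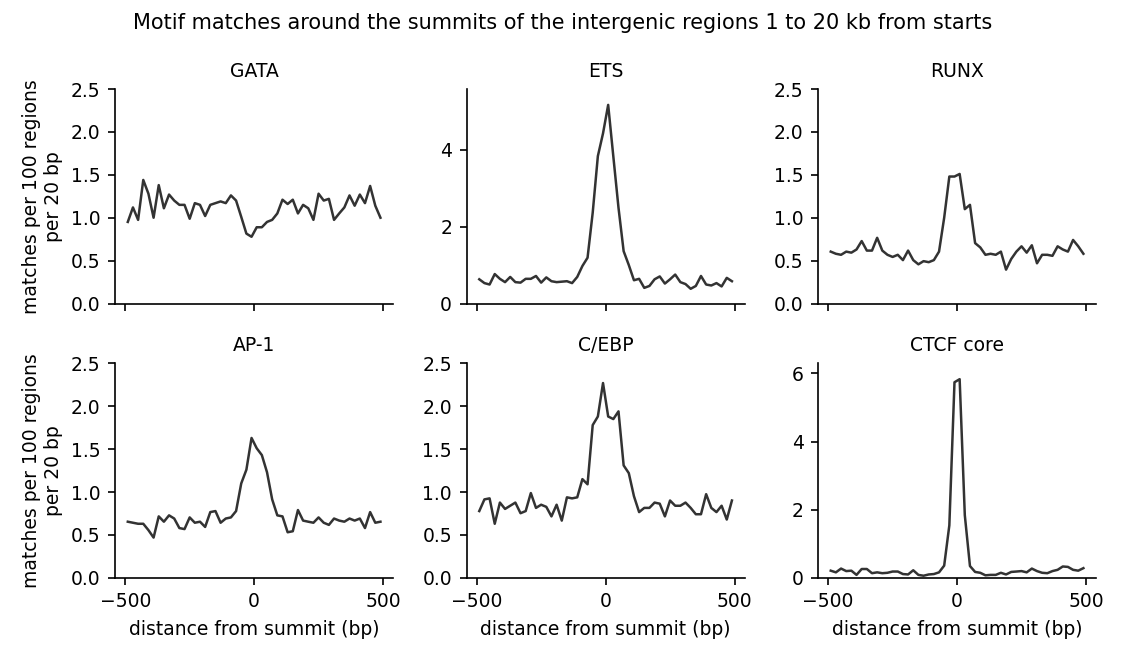
Matches per 100 near-gene intergenic regions per 20 bp (y axis, scaled in each panel) by distance from the summit in bp (x axis), for 6 patterns. ETS and CTCF core matches are concentrated at the summit, at 4.79 and 5.78 per 100 regions within 20 bp of it, and GATA matches dip there to 0.833.

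CTCF core letters were in 15.8% of the regions and 2.70% of their flanks. They were in 11.7% of regions at 20 to 200 kb and 1.64% of the flanks of those. A higher share at summits than in flanks was thus not particular to near-gene intergenic regions. At 20 to 50 kb the share was 14.1%, above that at 1 to 2 kb and below those of the other bins within 20 kb. It was 7.13% beyond 200 kb, 12.2% in exons, 10.3% in introns and 5.56% at promoters. Each replicate's own near-gene intergenic regions gave 15.8% in replicate 1 and 14.8% in replicate 2. Downstream of the nearest start the share was 21.7%, and upstream it was 14.5%. Between genes that end next to each other it was 21.3%, between genes of the same direction 15.7% and between genes that start next to each other 14.5%. Regions with the CTCF core had median fold enrichments of 8.0 in replicate 1 and 7.88 in replicate 2, and regions without it 6.77 and 7.27. In 5 groups of nearly equal size by mean fold enrichment, the CTCF share from the weakest to the strongest group was 8.02%, 14.6%, 17.7%, 19.1% and 19.8%.

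Other patterns followed strength less. Over the same groups the ETS share stayed between 20.1% and 24.4%, and the GATA share was 9.88%, 10.4%, 9.45%, 7.84% and 6.67%. ETS and CTCF letters seldom shared a region, as 4.63% of regions with ETS letters held the CTCF core, compared with 19.2% of those without. GATA and ETS letters were together in 174 regions (2.15%), and 24.3% of regions with GATA letters held ETS letters, compared with 22.8% of those without. No GATA, ETS or RUNX letters were found in 63.7% of the regions. The GC box GGGCGG, known from CpG-rich promoters, was in 8.93% of the regions, compared with 46.3% of promoter regions.

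Near-gene intergenic regions lay next to 4964 of 20807 protein-coding genes, which is 23.9%. By the rule, 4179 genes had no eligible sequence and could not have one. Of the 16628 genes with eligible sequence, 29.9% had one. Of the 4964 genes, 3021 were nearest to 1 region, 1190 to 2 and 753 to 3 or more. A promoter was called open when any of the gene's transcript starts had a shared region no more than 500 bp away, as in 60.6% of all coding genes. Genes with a near-gene intergenic region had an open promoter in 74.0% of cases, compared with 56.4% of genes without one. The genes without one include those with no eligible sequence. Among the genes nearest to most regions were Il21r, Pmaip1, Tifab and Zc3h12a with 8 each, and Fos, Ifitm3, Lyz2, Nanos3, Susd1 and Tmem119 with 7 each. Il21r encodes the interleukin-21 receptor, Pmaip1 the pro-apoptotic protein NOXA, Zc3h12a the RNase regnase-1 that cleaves inflammatory transcripts, and Fos a subunit of AP-1. All 8 regions of Il21r were upstream, 1.48 to 19.9 kb away, with 3.19 to 10.3-fold enrichment in replicate 1 and 4.03 to 11.5-fold in replicate 2.

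The lists of cell type genes below were chosen with earlier results of these data known, so their counts are descriptions. Of 26 megakaryocyte and platelet surface and granule genes, 12 (46.2%) had a near-gene intergenic region, as did 10 of 19 megakaryocyte and erythroid transcription factor genes (52.6%) and 8 of 19 platelet signalling genes (42.1%). Over the eligible sequence of each list there were 48.4, 89.6 and 70.4 shared regions per Mb, compared with 37.3 per Mb over all genes. Densities above that of all genes were not limited to megakaryocyte lists, with 86.7 per Mb for housekeeping genes and 77.6 per Mb for B cell genes. By each replicate's own regions the surface and granule list had 59.6 and 63.3 per Mb and the transcription factor list 93.9 and 111 per Mb, compared with 42.5 and 43.6 over all genes. Itga2b, which encodes an integrin chain of the platelet fibrinogen receptor, Ppbp, Gp5 and Gp6 were among the listed genes without such a region. Gata1 is on chromosome X and was not analysed here.

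Among the genes of platelet adhesion receptors, Gp1ba, Gp1bb and Gp9, which encode chains of the receptor for von Willebrand factor, had 1 region each. The region 14 kb upstream of Gp9 had a fold enrichment of 10.1 in replicate 1 and 8.50 in replicate 2. That 4.56 kb downstream of the Gp1bb start had 9.57 and 10.8, and that 9.37 kb upstream of Gp1ba had 6.22 and 7.13. None of these 3 genes had a shared region at the promoter, where Gp1ba had one in replicate 1 alone and Gp9 in replicate 2 alone. In each case another annotated start was nearer to the summit, at 2131 bp for the Gp9 region, 3798 bp for Gp1bb and 4194 bp for Gp1ba. The same held for the regions of Pf4, Treml1, Cbfb and Rap1b, among others. The region 11.4 kb upstream of Itgb3, the partner chain in the fibrinogen receptor, had 9.09 and 7.87 and held ETS letters. Clec1b, the receptor for podoplanin, had 5.04 and 6.04 at a region 3.98 kb upstream and no promoter region in either replicate. The summits of the Gp1ba and Clec1b regions lay in masked repeat sequence.

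Of the other surface and granule genes, Cd9, a tetraspanin, and Cd226, an adhesion receptor, had the strongest regions. Fold enrichment was 11.2 in replicate 1 and 11.6 in replicate 2 at Cd9, and 11.4 and 9.78 at Cd226. Selp, which encodes P-selectin of granule membranes, had 2 upstream regions. The region 17.1 kb away had 11.1 in replicate 1 and 9.28 in replicate 2, and that 4.14 kb away 3.55 and 5.21. Treml1, which encodes a receptor kept in platelet granules, had 7.70 and 9.88 at a region 19.3 kb downstream. The other regions shown above were weaker. Pf4 had 5.04 in replicate 1 and 4.48 in replicate 2 at 3.42 kb downstream, and Vwf had 3.55 and 4.94 at 6.39 kb upstream. Neither was on the stricter list of both replicates.

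Among transcription factor genes, Etv6 and Lmo2 were nearest to 4 regions each, Bach1 to 3, and Tal1, Meis1 and Erg to 2 each. All 21 regions next to genes of the transcription factor list lay upstream. The strongest was 19.9 kb upstream of Fli1, an ETS factor of megakaryocytes, with 12.2 in replicate 1 and 13.5 in replicate 2, and it held the PU.1 box. A region 12.9 kb upstream of Cbfb, the partner of RUNX proteins, had 11.4 and 12.7. The strongest region of Etv6, which encodes an ETS repressor, had 10.6 and 12.1. At Tal1, which encodes a factor that joins GATA1 at its sites, the stronger region had 7.82 and 8.66 and also held the PU.1 box. That of Lmo2, the adaptor of the same complex, had 7.47 and 7.53 at 12 kb and held GATA and ETS letters. The single region of Nfe2, which encodes the megakaryocyte chain of NF-E2, was weak at 3.21 and 3.44. Of the 21 regions, 8 held ETS letters (38.1%), 2 GATA letters (9.52%) and 2 RUNX letters (9.52%). The shares among all near-gene intergenic regions were 22.9%, 8.84% and 9.40%, and the differences were not tested.

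**Figure D4:**
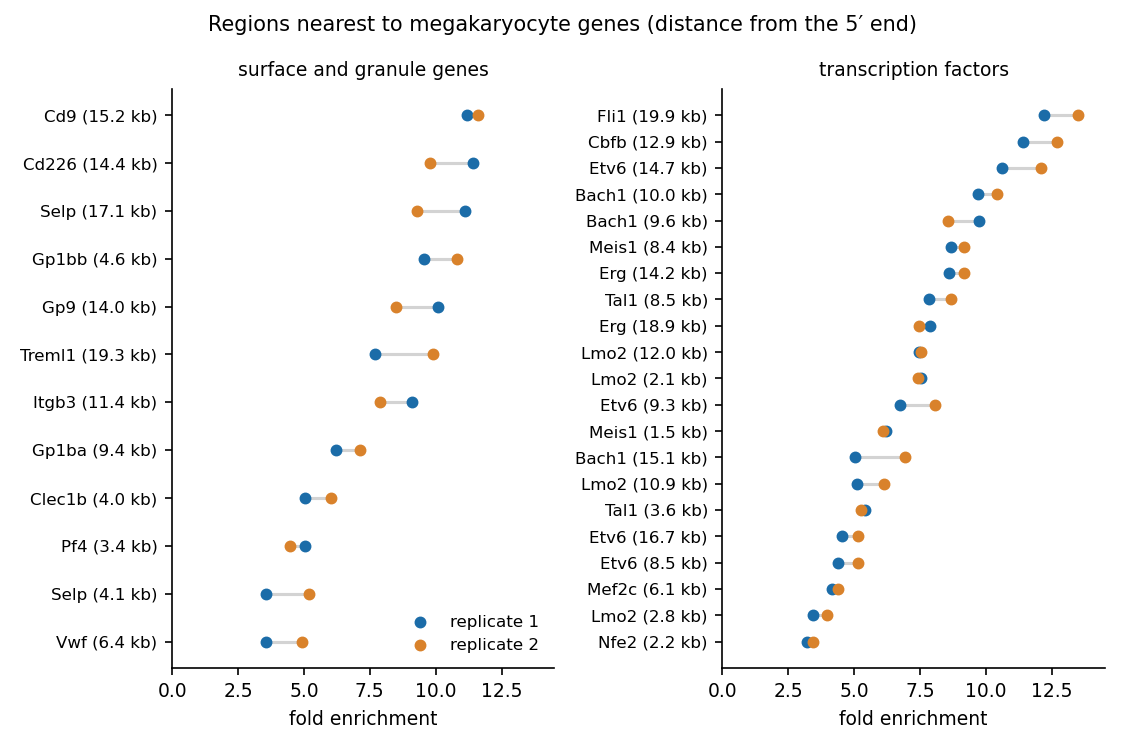
Fold enrichment (x axis) in replicate 1 and replicate 2 of near-gene intergenic regions next to a megakaryocyte and platelet surface or granule gene (left) and next to a megakaryocyte and erythroid transcription factor gene (right), with the distance from the 5′ end in brackets. Values run between 3.55 and 11.6 on the left and between 3.21 and 13.5 on the right, and the replicates stay within 1.5-fold at all regions shown.

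Of the platelet signalling genes, Plcg2, which encodes phospholipase C gamma, had the strongest region, with 17 in replicate 1 and 15.5 in replicate 2 at 16.3 kb upstream. Gnaq, the G protein alpha subunit that couples thrombin and thromboxane receptors, had 13.8 and 15.0. Rap1b, a small GTPase of integrin activation, had 11.9 and 11.6. Syk, the kinase below the collagen receptor, and Gnai2 had 3 upstream regions each. Ptgs1, cyclooxygenase of the thromboxane pathway, had 7.24 and 6.76.

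Genes of other blood lineages also had such regions. Of 20 neutrophil genes 19 (95%) had at least 1, in all with 42 regions, and so did 19 in each replicate's own regions. This was 143 shared regions per Mb of eligible sequence, with 166 per Mb in replicate 1 and 153 in replicate 2. Of 18 monocyte and macrophage genes 11 (61.1%) had one, at 99.5 per Mb. The shares were 6 of 19 for erythroid genes, 4 of 13 for B cell genes, 4 of 14 for T and NK cell genes and 6 of 20 for housekeeping genes. Among all coding genes the share was 23.9%, and among those with eligible sequence 29.9%. Per Mb of eligible sequence there were 50.1 shared regions for the erythroid list and 27 for the T and NK cell list. Of the lists from outside blood, 1 of 15 hepatocyte genes (6.67%) and 2 of 12 neuronal genes had one, at 5.78 and 15.9 per Mb. By each replicate's own regions it was 2 of 15 hepatocyte genes (13.3%) in both replicates and again 2 of 12 neuronal genes. By promoter, 14 of 26 surface and granule genes were open, as were 18 of 19 genes on each of the transcription factor and platelet signalling lists, compared with 60.6% of all coding genes. The counts were 17 of 20 for neutrophil genes, 14 of 18 for monocyte genes, 14 of 19 for erythroid genes, 6 of 13 for B cell genes and 7 of 14 for T and NK cell genes. They were 20 of 20 for housekeeping genes, 1 of 15 for hepatocyte genes and 3 of 12 for neuronal genes. The part of other marrow cells in these counts was not tested, and in bulk samples a smaller number of cells of a type and less accessible chromatin in each cannot be told apart.

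**Figure D5:**
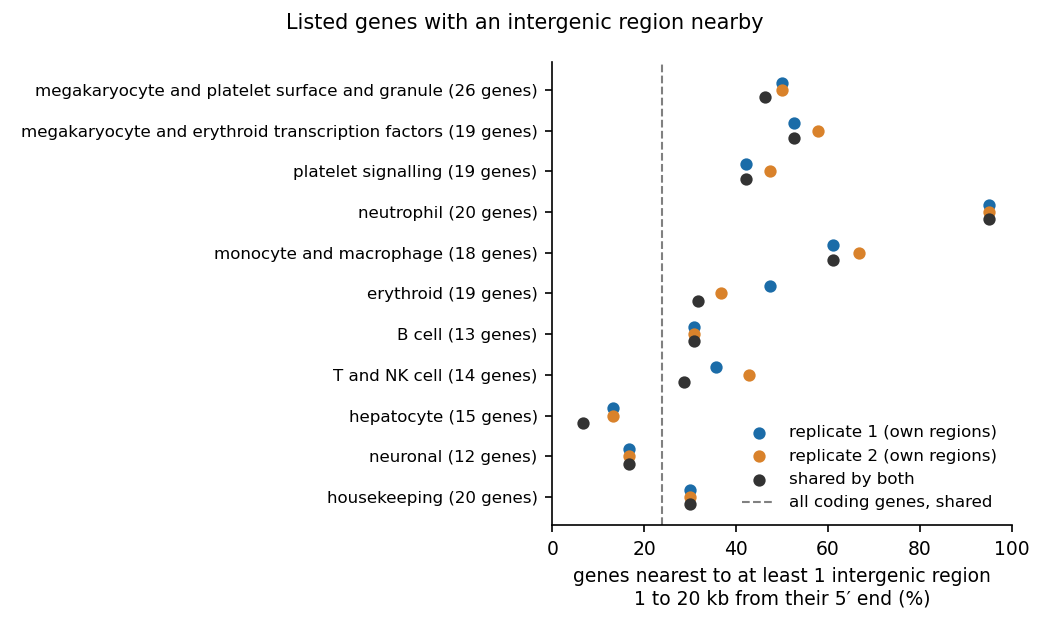
Percent of the genes of each list that were nearest to at least 1 near-gene intergenic region (x axis), by list (y axis), using regions of replicate 1, of replicate 2 and shared by both; the dashed line is the 23.9% of all coding genes. Neutrophil genes stand at 95% in all 3 sets and hepatocyte genes at 6.67% with shared regions.

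The regions next to neutrophil genes were many and mostly of modest strength. Their median fold enrichment was 5.14 in replicate 1 and 5.90 in replicate 2. Of these regions, 12 of 42 (28.6%) held C/EBP letters, compared with 14.4% of all near-gene intergenic regions. Next to monocyte and macrophage genes it was 2 of 28 (7.14%), and next to B cell genes 2 of 8. A share above 14.4% was thus neither common to both myeloid lists nor limited to them. The strongest region next to a neutrophil gene lay 13.3 kb downstream of the start of Cxcr2, a chemokine receptor, with 17.2 and 14.7. Retnlg had 10.3 and 12.6, Itgam, the integrin chain CD11b, had 11.5 and 10.9, and Mpo, myeloperoxidase, had 10.4 and 11.3. Elane, which encodes neutrophil elastase, had 6.46 and 6.36 at 2.41 kb upstream without an open promoter. Among monocyte genes, Klf4 had 16.9 and 18.1, Fcgr1 had 10.8 and 14.1, and Lyz2, lysozyme, was nearest to 7 regions of 5.37-fold or less in replicate 1 and 4.27-fold or less in replicate 2. Among housekeeping genes, Actb had 17.4 and 16.3 and Rab7 had 15.4 and 15.8 at their strongest regions.

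Genes of 8 lists had a near-gene intergenic region and no shared region at the promoter. They included Gp9, Gp1ba, Gp1bb, Selp, Clec1b and Treml1 of the surface and granule list and Erg, an ETS factor, with 8.61 in replicate 1 and 9.16 in replicate 2. Beside them stood Elane, Chil3 and Fpr1 of the neutrophil list, Marco of the monocyte list, Igll1 of the B cell list, and Cd3e, Tcf7 and Ncr1 of the T and NK cell list. Ambp of the hepatocyte list and Nefl of the neuronal list were among them too. Of the genes named here, Gp1ba, Erg and Tcf7 had a promoter region in replicate 1 alone. Gp9, Selp, Chil3 and Ncr1 had one in replicate 2 alone. The Cd3e region, 13.4 kb upstream, had 10.4 and 8.23, and the Ambp region, 4.32 kb upstream, had 9.05 and 8.67.

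The strongest near-gene intergenic region of all, 13 kb upstream of Abcb11, the bile salt export pump of the liver, had 35.4 in replicate 1 and 36.1 in replicate 2 (chr2:69355475-69355727). It held 129 bases identical to mitochondrial DNA, and was the only 1 of 8099 with such a match of 100 or more bases. What reads from mitochondrial DNA contribute to it was not tested. Next was the region 5.54 kb upstream of Sfpq, a nuclear RNA-binding protein, with 26 in replicate 1 and 27.9 in replicate 2 (chr4:127015631-127016102). It was followed by regions next to Lrfn3 with 23.5 and 24.4, Tada1, a subunit of the SAGA coactivator, with 21.9 and 23.8, and Kcnk15, a potassium channel, with 23.3 and 21.4. Nsd1, a histone methyltransferase, Gbx1, Ccdc65, Pou2f2, Gm9049 and Arpc2, a subunit of the Arp2/3 actin complex, completed the 10 strongest without a second match, with 19.8 to 23.3 in replicate 1 and no more than 22.4 in replicate 2. The CTCF core was in the regions of Sfpq, Tada1, Pou2f2 and Gm9049. None of these 10 genes was on a list of megakaryocyte genes.

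At the limits of the rule the values were mixed. Just inside 20 kb were regions next to Wdpcp with 6.60 in replicate 1 and 4.82 in replicate 2, Prelid3b with 7.32 and 7.41, and Hif1an with 14.4 and 13.2. Just outside lay regions next to Ifitm3 with 9.67 and 9.79, Lhx2 with 5.29 and 5.21, and Dyrk1a with 8.45 and 10.6. At the 1 kb limit the regions next to Ier2 with 4.78 and 4.39, Arl2bp with 11.5 and 9.86, and Wdr63 with 6.60 and 7.77 were just inside. Those next to Dnajc3 with 7.52 and 9.30, Bod1l with 4.19 and 4.35, and Wrnip1 with 5.26 and 5.14 were just outside. The Dnajc3 region lay 995 bp from another annotated start and 44.8 kb from the Dnajc3 start, so it was outside the 20 kb limit too.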

How the data were processed

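The samples were 2 ATAC-seq replicates of 1 group, grouped by the cell type in the labels. The authors called peaks on build mm10 from filtered alignments and a list of excluded regions, per the labels and notes deposited with the files. The aligner, the peak caller and their versions are not given in the sources used here. Lists used were, for each sample, the pseudoreplicated and the IDR-thresholded peaks, and for the series the replicated and the conservative IDR peaks. In the deposited lists, which carry no header, column 7 was taken as the fold enrichment over local background (a ratio) and column 8 as the −log10 p-value, following the peak format. The deposited summit position is an offset in column 10. No scaling between samples is stated and values were compared as deposited. The files hold no read counts, so the depth is unknown and no interval was computed. Absence from a list means that no peak was called there. Columns left without a sample numbered 0.

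Rows with an overlap of 1 bp or more were merged, keeping the highest fold enrichment. Genes, transcripts and starts came from GENCODE M21 (GRCm38, the same assembly as mm10) and sequence from the RefSeq GRCm38 assembly. Eligible sequence was every base outside gene bodies and more than 1 kb from each start, assigned to the nearest coding start. In all 19 consensus patterns were searched, on either strand, in windows of 100 bp to each side of the summit, with flanks of the same length centred 1 kb away. Copies in the genome and in mitochondrial DNA were sought with BLAST+ 2.17.0, counting matches of at least 95% identity over 80% of the region or 100 bases of mitochondrial DNA. Copies were sought for 258 named or strong regions. Tables were made with Python 3.11.15, numpy 2.4.6 and pandas 2.3.3, and figures with matplotlib 3.10.9. The functions were tested on simulated regions and sequence.

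With 1 group of 2 samples there was no test and no p-value, and all values are descriptions. Of the 203 genes in 11 lists, those on chromosome X and 1 further symbol, Tf, were not analysed here. The members and lists were chosen with earlier results of these data known, and reversed patterns, per-list densities, gene orientation, chromosome and flank GC values were added after results were seen. Named genes were the 10 strongest regions with and without a second match, up to 3 strongest per list, all listed megakaryocyte and transcription factor genes with a region, the 10 genes nearest to most regions, listed genes without a shared promoter region, 3 regions on each side of a limit, and the 5 largest differences between replicates in each direction. Sequences were taken from up to 3 genes in each of the megakaryocyte, transcription factor, platelet signalling and neutrophil lists, in order of strength, whose strongest region held 1 of 6 patterns within 60 bases of the summit. Those of Sfpq, Pf4 and Vwf fall outside this. Mpo, Syk, Gnai2, the values of Ptgs1 and listed genes without a region were named after their values were seen. Some genes that the rule names are not reported here.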

Additional observations from a re-analysis of the deposited data

How the results depend on the processing

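Of 94 values for 9 results under 11 planned settings and 2 added after the data were seen, 45 stayed within the spread between replicates (within 1.5 times for the count) and 49 did not. For the upstream and motif shares this spread was that of each replicate's own regions, chosen after the values were seen. For the share of coding genes it was also that of own regions, whose 26.1% and 25.9% both lie above the main 23.9%. For these shares, leaving out a replicate gives the same values that made the spread, so those settings are no separate check. With the spread of the replicates' summits within shared regions, used first, 31 stayed within it and 63 did not. The cause was not tested. With the IDR list of each replicate, the count was 4066, the median fold enrichment 9.58, the median width 492 bp, the upstream share 82.1%, the GATA share 7.38%, the CTCF share 17.2% and the share of coding genes 14.8%. The share in both IDR lists has no meaning there and was not computed. With a 10 kb limit, the count was 4488, the fold enrichment 6.79, the upstream share 87.5%, GATA 9.07%, RUNX 9.16% and genes 16.4%. With rows of at least 4-fold only, the fold enrichment was 7.60, upstream 81.1%, both IDR lists 55.9%, RUNX 9.27%, CTCF 17.2% and genes 22.7%. With the replicated list, the fold enrichment was 6.35, the width 348 bp, both IDR lists 36.1%, GATA 9.49%, CTCF 14.9% and genes 29.1%. With coding genes alone as bodies and starts, upstream was 82.0%, GATA 8.68%, RUNX 9.07% and genes 27.2%. More than 2 kb from every start, upstream was 80.5% and genes 21.7%. With 50% reciprocal overlap, genes were 23.3%. Within 50 bp of the summit, GATA was 3.90%, RUNX 6.16% and CTCF 15.0%. The added patterns AGATAAG and GATAA gave 2.93% and 18.6%.

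Leaving out a replicate left each replicate's own regions. The fold enrichment was then 6.48 to 6.80, the width 311 to 344 bp, both IDR lists 43.2% to 44.4%, GATA 9.08% to 9.27%, RUNX 9.27% to 9.37%, CTCF 14.8% to 15.8% and genes 25.9% to 26.1%. The summit by −log10 p moved no result beyond that spread. No paired analysis was possible because there was 1 group. The number of replicates, the unknown depth and the unknown purity of the cells limit every value, and a nearest gene is not a shown target.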

Other observations

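Regions 1 to 20 kb from a start without a partner in the other replicate came to 978 for replicate 1 and 1282 for replicate 2. Their median fold enrichments were 4.15 and 4.19, below the 6.97 and 7.41 of shared ones. Each replicate alone had 9208 and 9446 regions by the same rule, 11.8% of its regions in both. Coding genes next to an own region numbered 5421 in replicate 1 and 5397 in replicate 2.

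Regions next to a gene with an open promoter, 6101 in all, had ETS letters in 24.1% and the CTCF core in 14.6%. Those next to a gene without one had ETS letters in 19.3% and the CTCF core in 19.7%. GATA letters were in 8.92% of regions by open genes and 8.61% of regions by the others. Median fold enrichments were 6.82 in replicate 1 and 7.27 in replicate 2 by open genes, and 7.31 and 7.68 by the others.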
